A study of Homo sapiens with 17 samples.

Results

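The tight junction and apical polarity genes described here are 37 named genes. They were taken by gene symbol from the 60662 genes of an RNA-seq count table of Ishikawa cells as a fixed list with no threshold on their values, and all 37 were found. They comprise 12 claudins, 4 MARVEL proteins, 3 immunoglobulin-like adhesion proteins, 8 junction scaffolds, 6 genes of the PAR-aPKC complex, 3 of the Crumbs complex and 1 basolateral polarity gene. Ishikawa is an established line from an endometrial adenocarcinoma and a cancer cell model of the endometrial epithelium. The 11 cultures compared are 3 controls in untreated medium, 3 vehicle controls (labelled Vehicle Nap EtOH), 2 cultures labelled Nap only and 3 cultures given progesterone (P4, labelled Vehicle Nap P4), with treatments of 24 h. What Nap stands for is not stated in the sources used here. Ethanol is named for the vehicle control and not for the P4 treated cultures, so an effect of P4 and an effect of ethanol cannot be told apart in that comparison. The culture methods give the vehicle as 70% ethanol, while a figure caption gives another percentage. The sources also give different P4 concentrations, and none is printed. A further 6 libraries carry sample titles that contradict their column names for recombinant PSAT1 with and without P4, and they enter no comparison.

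Tight junctions seal the space between neighbouring epithelial cells at their apical side. Claudins form the paracellular strands and set which ions pass, and occludin, a MARVEL protein, sits in the same strands. Scaffolds such as ZO-1 and cingulin tie the strands to actin, while the PAR-aPKC and Crumbs complexes place the junction at the apical border and keep it apart from the basolateral Lgl and Scribble proteins. In the endometrium, the luminal epithelium remodels its junctions around the time an embryo can attach.

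Library totals ranged from 4999521 counts in vehicle control replicate 1 to 19704493 in control replicate 2. Levels are read counts divided by library size with TMM scaling over all 17 libraries (normalised CPM), or RPKM, which also divides by exon length, wherever genes are compared with each other. All 5 epithelial markers were detected in every library, with summed levels of 1153 to 1368 CPM in control, 1169 to 1172 in vehicle control and 927 to 1079 in P4 treated cultures. CDH1, which encodes E-cadherin, was 0.24 log2 units higher after P4 than in the vehicle control, whereas KRT8 was -0.70 and KRT18 -0.34. Stromal fibroblast markers summed to 345 to 360 CPM in the vehicle control and to 127 to 180 after P4, with 4 of 5 tested genes called lower, where 27.8% of protein-coding genes were. COL1A2, the largest of them in every library, was at 252 to 278 CPM and 55.1 to 113 CPM, and DCN had at most 3 counts in every library. Müllerian epithelium markers, among them PAX8, summed to 526 to 572 CPM in control, 657 to 665 in vehicle control and 512 to 540 in P4 treated cultures. PAX8 alone was at 213 to 236, 338 to 362 and 206 to 231 CPM in these groups. SOX17 was at 21.6 to 24.1 CPM in vehicle control and 25.1 to 27.1 CPM after P4. Of the 5 genes, 2 were called lower and 0 higher in P4 treated against vehicle control cultures, where 27.8% of protein-coding genes were called lower. Endothelial and leukocyte markers summed to at most 1.74 and 1.85 CPM, and CDH5 was at 0. The progesterone receptor gene PGR stood at 102 to 116 CPM in control, 50.0 to 61.8 in vehicle control and 18.4 to 27.6 in P4 treated cultures. The part of these marker shifts in the values below was not tested. All cultures are of the Ishikawa line, so these marker names do not stand for separate cell types in them. In bulk RNA, fewer cells expressing a marker and less of its RNA per cell cannot be told apart.

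The first comparison asked which of these genes differed between P4 treated and vehicle control cultures. CLDN1 rose 4.16-fold and AMOTL2 3.49-fold, while CLDN11 fell 3.11-fold and CLDN4 2.68-fold. The polarity genes PARD3, PARD6B and PRKCI rose, and PARD6A and PARD6G fell. Among the MARVEL genes OCLN rose while MARVELD1 and MARVELD3 fell. Of the 37 genes, 34 had enough counts to be tested and 20 were called at an adjusted p under 0.05, of which 11 were higher and 9 lower. Among all 12854 protein-coding genes tested, 58.2% were called, 30.4% higher and 27.8% lower, so the share of junction genes called (58.8%) was close to that background. With upper-quartile scaling the split was 10 higher and 13 lower. Changes above 1 log2 unit were seen for 2 genes higher and 3 lower, against 5.48% and 5.76% of protein-coding genes (11.2% in either direction). The median log2 fold change was -0.08 over the 34 genes and 0.01 over all protein-coding genes, and the median size was 0.41 and 0.37.

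**Figure D1:**
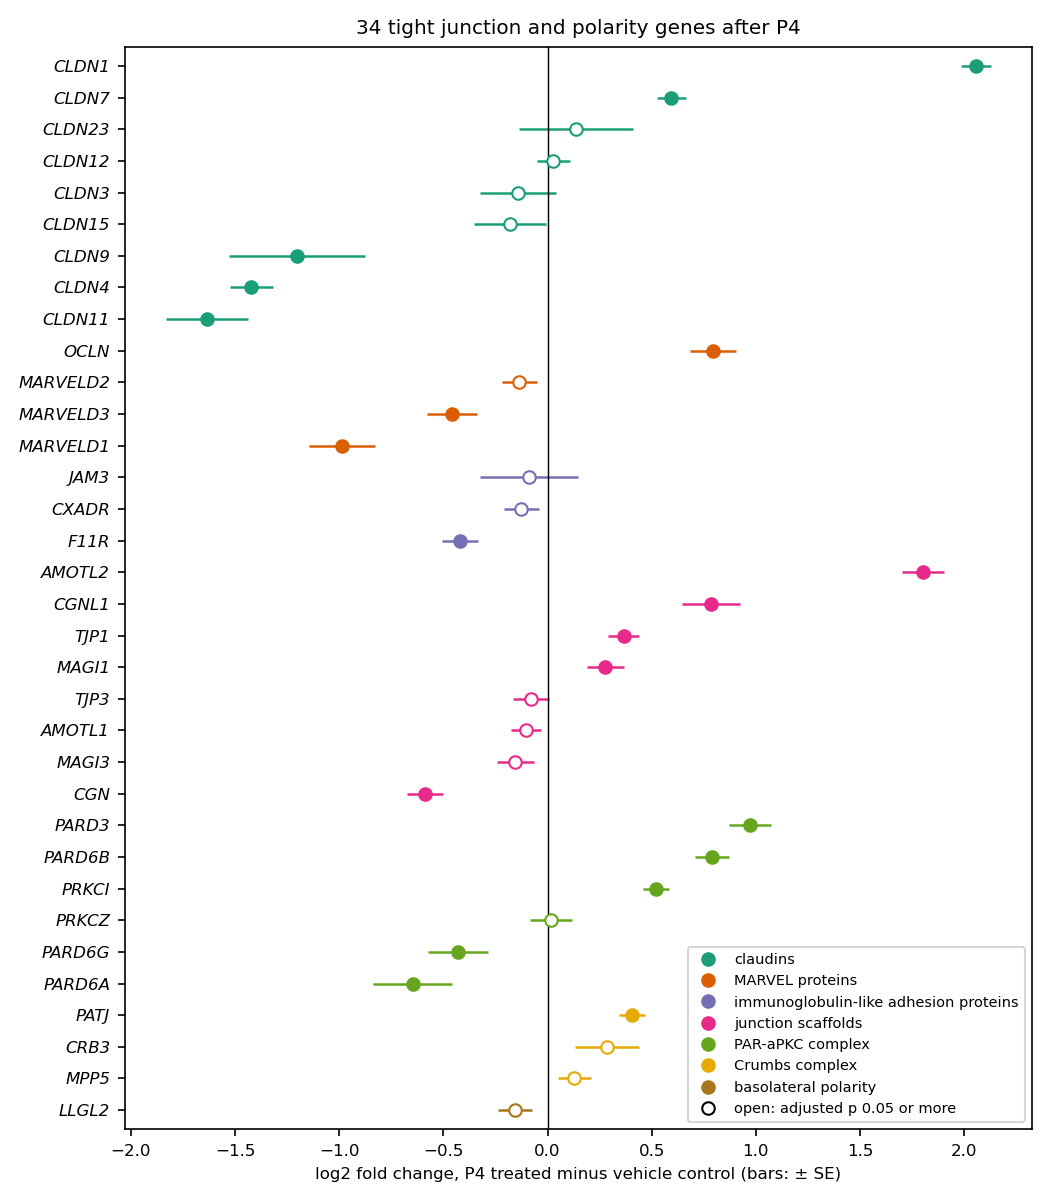
Log2 fold change (x axis, P4 treated minus vehicle control, points with SE bars) of the 34 tested genes, coloured by role. Filled points are the 20 genes with an adjusted p under 0.05. CLDN1 and AMOTL2 lie farthest to the right and CLDN11, CLDN4 and CLDN9 farthest to the left.

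In 18 of the 34 tested genes, all of them called, the P4 treated and vehicle control libraries did not overlap in normalised CPM. This was so for a larger share, 65.1%, of all protein-coding genes tested. All 3 P4 treated libraries lay outside the range of the 8 control, Nap only and vehicle control libraries for 17 of the 34 genes, 11 above and 6 below. Over protein-coding genes this was so for 48.7%, with 26.4% above and 22.3% below.

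The promoters of the genes with the largest changes are shown for orientation. The windows come from RefSeq (GRCh38.p14) and span 250 bases before to 50 after an annotated start. The table holds 42 windows for 28 of the 37 genes, and CLDN9, CLDN23, CXADR, F11R, JAM3, LLGL2, MARVELD3, PARD3 and PARD6B have none in it. Capitals mark matches, on either strand, to 5 short motifs: GGAATG (bound by TEAD factors), TGANTCA (AP-1), CAGGTG (an E-box of SNAI and ZEB factors), AGAACA (steroid receptors) and GGGCGG (a GC box). No matches of different motifs overlapped in the windows printed. CLDN1 lies on the minus strand at chr3:190322397-190322696, AMOTL2 on the minus strand at chr3:134374398-134374697, CLDN4 on the plus strand at chr7:73830746-73831045 and CLDN11 on the plus strand at chr3:170418618-170418917.
CLDN1: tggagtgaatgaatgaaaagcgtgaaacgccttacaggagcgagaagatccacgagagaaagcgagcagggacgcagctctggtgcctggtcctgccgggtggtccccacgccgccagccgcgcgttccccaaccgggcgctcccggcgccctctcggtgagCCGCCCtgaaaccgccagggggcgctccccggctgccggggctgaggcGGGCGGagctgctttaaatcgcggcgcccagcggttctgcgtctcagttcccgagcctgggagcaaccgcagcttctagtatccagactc
AMOTL2: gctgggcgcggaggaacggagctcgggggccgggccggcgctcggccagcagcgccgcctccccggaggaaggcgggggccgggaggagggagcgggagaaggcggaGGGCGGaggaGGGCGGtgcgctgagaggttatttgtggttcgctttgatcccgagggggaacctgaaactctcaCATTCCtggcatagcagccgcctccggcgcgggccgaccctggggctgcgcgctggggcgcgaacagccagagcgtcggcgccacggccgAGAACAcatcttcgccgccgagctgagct
CLDN4: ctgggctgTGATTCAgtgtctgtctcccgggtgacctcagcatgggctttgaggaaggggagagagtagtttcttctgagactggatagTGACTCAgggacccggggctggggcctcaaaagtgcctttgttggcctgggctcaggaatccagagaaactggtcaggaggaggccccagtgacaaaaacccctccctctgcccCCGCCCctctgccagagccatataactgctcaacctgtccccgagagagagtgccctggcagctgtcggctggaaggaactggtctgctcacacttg
CLDN11: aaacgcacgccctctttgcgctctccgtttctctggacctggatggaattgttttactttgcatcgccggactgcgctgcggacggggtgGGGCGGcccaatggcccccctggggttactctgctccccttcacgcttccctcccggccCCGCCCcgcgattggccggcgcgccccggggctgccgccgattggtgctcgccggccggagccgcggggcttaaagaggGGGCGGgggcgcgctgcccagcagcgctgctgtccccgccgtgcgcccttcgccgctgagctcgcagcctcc
The CLDN1 window held GC boxes only. The AMOTL2 window held a TEAD motif, a steroid receptor motif and 2 GC boxes, while a second AMOTL2 window at chr3:134375368-134375667 held none of the motifs. The CLDN4 window held 2 AP-1 motifs and 1 GC box. The CLDN11 window held 3 GC boxes, and a second CLDN11 window at chr3:170420976-170421275 held a steroid receptor motif and a GC box. Across all 35116 windows of the table, 14.0% held the TEAD motif, 7.71% the AP-1 motif, 20.6% the E-box, 14.8% the steroid receptor motif and 45.0% the GC box. Over the 42 windows of these genes the shares were 11.9%, 4.76%, 33.3%, 16.7% and 71.4%. The windows of these genes were also richer in G and C than the table as a whole, with a median of 68.2% against 58.7%. The letters TATAAA were found in 0 of the 42 windows and in 11.5% of all windows. A match to these letters is a description and not a measured binding site.

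Of the 9 claudins tested, 2 rose and 3 fell, against the same background of 58.2% called. CLDN1, a barrier-forming claudin of many epithelia, was at 42.7, 46.8 and 46.5 CPM in the vehicle controls and at 182, 189 and 203 CPM after P4 (log2 fold change 2.06, SE 0.0725, adjusted p = 1.65e-09). Control cultures stood at 40.1, 23.4 and 37.6 CPM and Nap only cultures at 34.8 and 21.7 CPM. Every P4 treated library was above every other assigned library, and control replicate 2 and Nap only replicate 2 were the lowest. CLDN7, a claudin that also lines the lateral membrane, was at 47.9, 49.1 and 47.4 CPM in the vehicle controls and 72.8, 71.8 and 75.5 CPM after P4 (log2 fold change 0.59, SE 0.0698, adjusted p = 1.98e-05). The CLDN7 groups did not overlap. Its exons overlap those of ELP5 on the other strand, and since the strand setting of the counting is not given in the sources used here, reads of the 2 genes may be mixed.

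The claudins that fell were CLDN4, CLDN11 and CLDN9. CLDN4, a sealing claudin of glandular epithelia, was at 81.3, 88.2 and 82.7 CPM in the vehicle controls and 37.6, 28.2 and 29.7 CPM after P4 (log2 fold change -1.42, SE 0.103, adjusted p = 4.47e-07). Controls stood at 67.5, 83.6 and 60.0 CPM, and all 8 assigned libraries without P4 were above all 3 with it. CLDN11, best known from myelin and the Sertoli cell barrier, was at 11.1, 8.10 and 9.97 CPM in the vehicle controls and at 3.65, 3.26 and 2.44 CPM after P4 (log2 fold change -1.64, SE 0.196, adjusted p = 2.32e-05), without overlap. CLDN9 was called lower (log2 fold change -1.20, SE 0.327, adjusted p = 0.00794), but the groups overlapped at 1.53, 2.73 and 2.89 CPM against 0.864, 1.63 and 0.838 CPM, and against the untreated control the change was -0.65 with adjusted p = 0.103. CLDN3, CLDN12, CLDN15 and CLDN23 were not called, with log2 fold changes from -0.18 to 0.14. CLDN6 had at most 0.38 CPM, and CLDN10 and CLDN14 were at or close to 0, so none of these was tested.

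**Figure D2:**
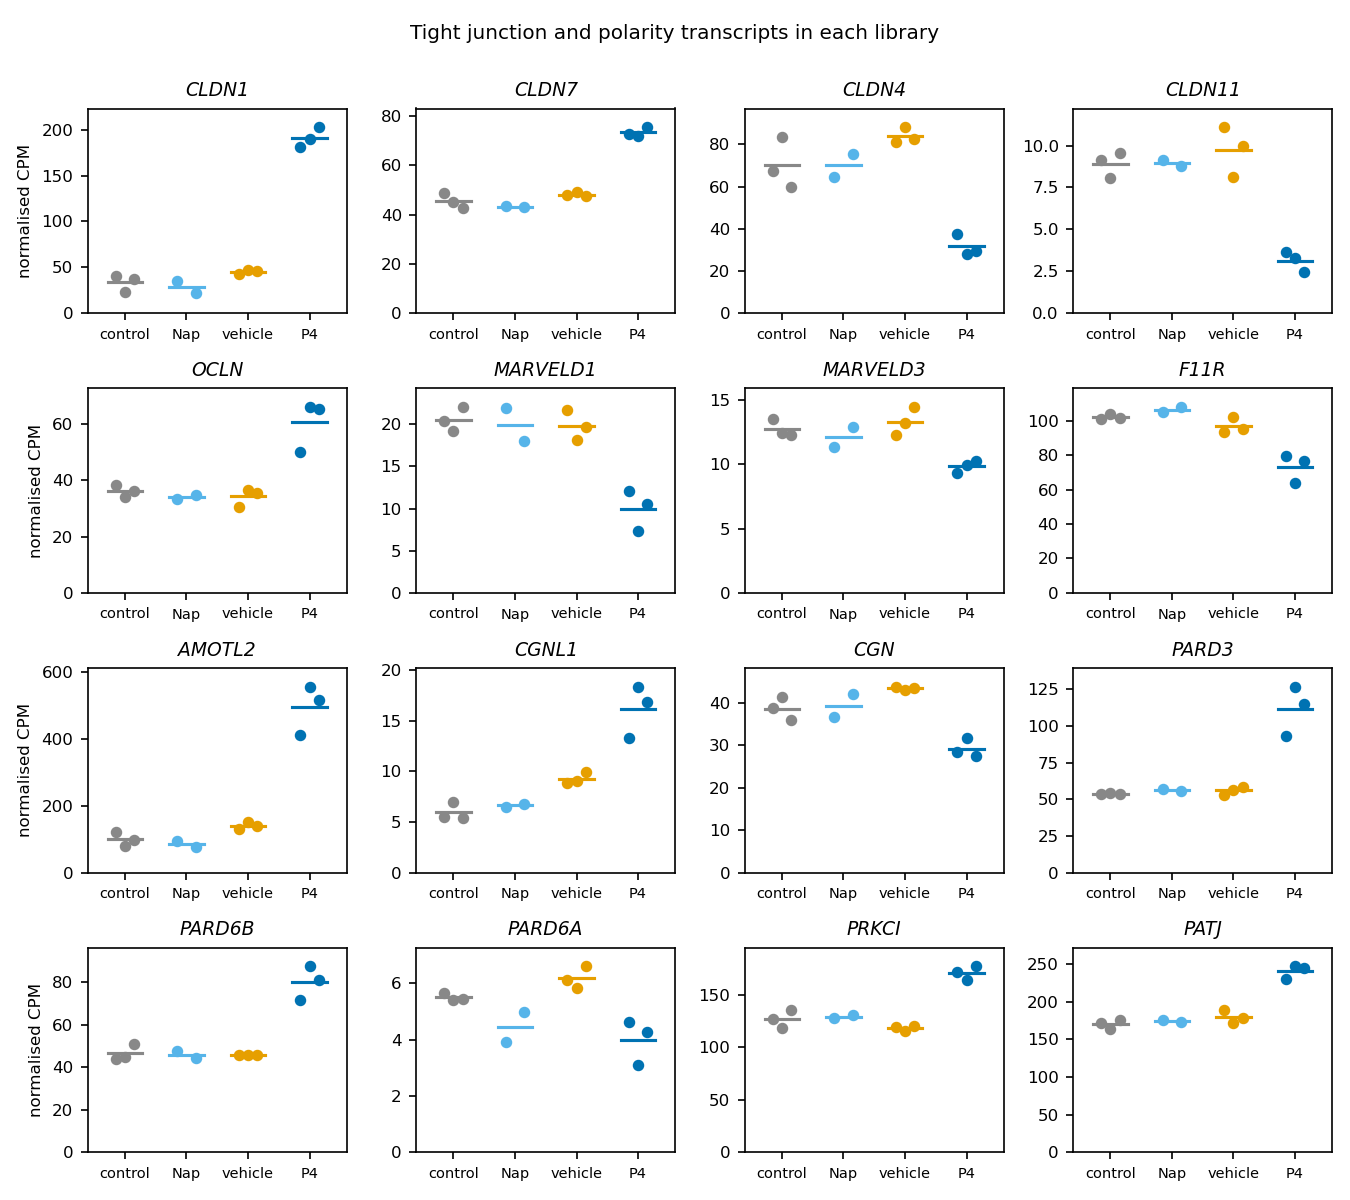
Normalised CPM (y axis, each starting at 0) of 16 genes in each library of the control, Nap only, vehicle control and P4 treated groups. Points are libraries and bars the group means. The genes shown were chosen from the 18 of 34 tested that were called without overlap between P4 treated and vehicle control. The separation of these 2 groups in every panel therefore follows from the choice. In PARD6A the P4 treated libraries overlap the Nap only libraries.

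On the RPKM scale, which allows genes to be set side by side, the leading claudin changed. In the vehicle controls CLDN7 (19.0 to 19.7 RPKM) and CLDN4 (17.3 to 18.8 RPKM) stood above CLDN1 (11.7 to 12.8 RPKM). After P4 CLDN1 stood at 49.6 to 55.4 RPKM, above CLDN7 at 28.8 to 30.3 and CLDN4 at 6.01 to 7.99. The sum of the 12 claudins was 71.1 ± 0.891 RPKM in vehicle control and 107 ± 2.05 RPKM in P4 treated cultures (SD, n = 3 each). CLDN1 made up 17.4 ± 0.963% of this sum in the vehicle controls and 48.9 ± 1.84% after P4, while the share of CLDN4 went from 25.2 ± 0.957% to 6.36 ± 1.12% (SD, n = 3 each). The share of CLDN7 was 27.2 ± 0.276% and 27.6 ± 0.563%. The ratio of CLDN1 to CLDN4 was 0.674 to 0.721 in the vehicle controls, 0.360 to 0.804 in the controls and 6.21 to 8.78 after P4. The groups did not overlap in the sum, in either share or in the ratio, and the exact permutation p (two-sided) was 0.1 in each case, which is the lower limit for 3 cultures against 3. For the share of CLDN7 this exact permutation p was 0.3. CLDN1 and CLDN4 were already called in this comparison, so their shares and ratio restate those changes and are no separate support. A share also falls when the sum rises. The mean share of CLDN12 went from 10.2% to 7.01% and that of CLDN3 from 10.4% to 6.18%, although neither gene was called. The shares depend on the exon lengths used.

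**Figure D3:**
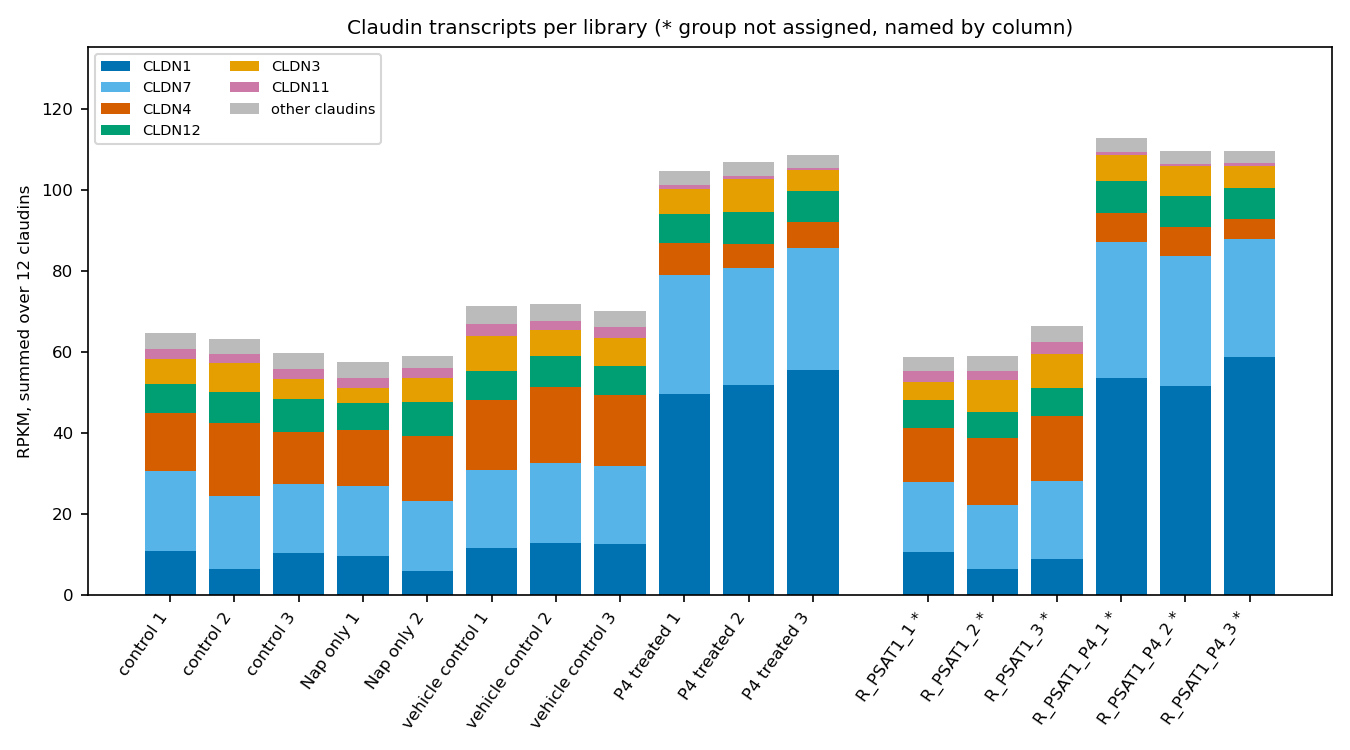
RPKM of the 12 claudins stacked for each library (y axis), grouped by condition, with the 6 unassigned libraries named by their columns on the right. CLDN1 takes 47.5 to 51.0% of the stack in the P4 treated libraries and 16.3 to 18.1% in the vehicle controls.

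Some of these genes are close neighbours in the genome, and their values are given in pairs. CLDN3 and CLDN4 lie 29.3 kb apart on chromosome 7, and CLDN4 fell while CLDN3 was not called (-0.14). OCLN and MARVELD2 lie 48.0 kb apart on chromosome 5, with log2 fold changes of 0.79 and -0.14. PRKCI and CLDN11 lie 113 kb apart on chromosome 3, and PRKCI rose while CLDN11 fell. The difference within a pair was not tested, and the positions are from GENCODE 29 on GRCh38.

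The MARVEL genes split in direction. OCLN, which encodes occludin, was at 30.6, 36.7 and 35.6 CPM in the vehicle controls and 50.2, 66.2 and 65.6 CPM after P4 (log2 fold change 0.79, SE 0.111, adjusted p = 8.1e-05). MARVELD1, a less studied relative, was at 21.6, 18.1 and 19.7 CPM and 12.1, 7.38 and 10.5 CPM (log2 fold change -0.99, SE 0.158, adjusted p = 0.000225). Neither gene's groups overlapped, and P4 treated replicate 1 was the closest to the vehicle controls in both. MARVELD3 fell from 12.2, 13.2 and 14.5 CPM to 9.32, 9.96 and 10.3 CPM (log2 fold change -0.46, SE 0.122, adjusted p = 0.00709), and without vehicle control replicate 3 its adjusted p was 0.0516. Exons of MARVELD3 overlap those of PHLPP2 on the other strand, with the same uncertainty as for CLDN7. MARVELD2, which encodes tricellulin of three-cell contacts, was not called against the vehicle control (-0.14). The ratio of OCLN to MARVELD2 in RPKM was 0.420 to 0.527 in the vehicle controls and 0.692 to 1.06 after P4.

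Among the immunoglobulin-like adhesion proteins, F11R, which encodes JAM-A, was at 93.2, 102 and 95.0 CPM in the vehicle controls and 79.5, 63.6 and 76.4 CPM after P4 (log2 fold change -0.42, SE 0.0882, adjusted p = 0.00159). The F11R groups did not overlap. CXADR, the coxsackievirus and adenovirus receptor, had the highest mean level of the 37 genes in the controls at 30.3 ± 3.02 RPKM (SD, n = 3), and its lowest library was above the highest of PRKCI, the next gene. The ranges of PRKCI and F11R, the third, overlapped. CXADR (-0.13) and JAM3 (-0.09) were not called. After P4 the highest levels were those of AMOTL2 (69.1 to 93.2 RPKM) and CLDN1 (49.6 to 55.4 RPKM), whose ranges did not overlap.

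Of the 8 junction scaffolds, 4 rose and 1 fell, where 30.4% of protein-coding genes were called higher and 27.8% lower. AMOTL2, an angiomotin that binds the Crumbs complex and the co-activator YAP, was at 129.6, 151 and 139 CPM in the vehicle controls and 413, 558 and 516 CPM after P4 (log2 fold change 1.80, SE 0.101, adjusted p = 5.24e-08). Its lowest P4 treated library was above each of the 8 control, Nap only and vehicle control libraries, which reached at most 151 CPM. AMOTL1, its paralog, was not called (-0.10), and the ratio of AMOTL2 to AMOTL1 in RPKM was 2.07 to 2.31 in the vehicle controls and 7.19 to 9.14 after P4. The cingulin genes moved in opposite directions. CGNL1, which encodes paracingulin, rose from 8.80, 9.06 and 9.89 CPM to 13.3, 18.4 and 16.8 CPM (log2 fold change 0.78, SE 0.140, adjusted p = 0.000519), and CGN fell from 43.8, 42.9 and 43.4 CPM to 28.3, 31.7 and 27.4 CPM (log2 fold change -0.59, SE 0.0864, adjusted p = 0.000119). Neither overlapped between groups, and CGN stayed the more abundant, with a ratio of CGNL1 to CGN of 0.153 to 0.174 in the vehicle controls and 0.357 to 0.469 after P4. TJP1, which encodes ZO-1, rose by 0.36 and MAGI1 by 0.28 log2 units, and MAGI1 was no longer called without vehicle control replicate 1 (adjusted p = 0.064) or with upper-quartile scaling (adjusted p = 0.079). TJP3 (-0.08) and MAGI3 (-0.15) were not called.

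In the PAR-aPKC complex, 5 of 6 genes were called, 3 higher and 2 lower, where 58.2% of protein-coding genes were called. PARD3, the membrane scaffold of the complex, was at 53.2, 56.7 and 58.6 CPM in the vehicle controls and 93.1, 127 and 115 CPM after P4 (log2 fold change 0.97, SE 0.101, adjusted p = 7.79e-06). PRKCI, the atypical protein kinase C iota, was at 119, 115 and 120.0 CPM and 172, 164 and 177 CPM (log2 fold change 0.52, SE 0.0624, adjusted p = 2.31e-05), and PRKCZ, which encodes the zeta form, was not called (0.02). For both PARD3 and PRKCI the P4 treated libraries were above the 8 control, Nap only and vehicle control libraries. The paralogs of PAR6, which links the kinase to CDC42, differed in direction. PARD6B rose from 45.7, 45.9 and 46.0 CPM to 71.6, 87.6 and 81.0 CPM (log2 fold change 0.79, SE 0.0831, adjusted p = 8.43e-06). PARD6A fell from 6.12, 5.82 and 6.59 CPM to 4.61, 3.09 and 4.27 CPM (log2 fold change -0.65, SE 0.189, adjusted p = 0.0121), although its P4 treated libraries overlapped the Nap only cultures at 3.93 and 4.96 CPM, and without vehicle control replicate 3 its adjusted p was 0.0622. The ratio of PARD6B to PARD6A in RPKM was 2.20 to 2.48 in the vehicle controls, 2.81 to 3.83 in the Nap only cultures and 4.89 to 8.92 after P4. PARD6G was called lower (-0.43, adjusted p = 0.0219) with overlapping groups, and was lost when P4 treated replicate 2 or 3 or vehicle control replicate 2 or 3 was left out (adjusted p from 0.0589 to 0.136).

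In the Crumbs complex PATJ, a multi-PDZ scaffold, was at 189, 172 and 179 CPM in the vehicle controls and 229.8, 247 and 244 CPM after P4 (log2 fold change 0.41, SE 0.0624, adjusted p = 0.000158), without overlap. CRB3, the transmembrane member (0.29), and MPP5, which encodes PALS1 (0.13), were not called. LLGL2, a basolateral protein that aPKC phosphorylates, was at 71.6, 63.8 and 61.3 CPM and 62.2, 56.4 and 58.4 CPM and was not called (log2 fold change -0.16, SE 0.0805, adjusted p = 0.121). Its groups overlapped, since P4 treated replicate 1 was above vehicle control replicate 3.

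Against the Nap only cultures, 19 of 34 genes were called after P4, 13 higher and 6 lower, where 54.3% of protein-coding genes were called (28.8% higher and 25.5% lower). Both comparisons use the same P4 treated cultures, so their values are given side by side and not as independent support. CLDN1 was 2.74 log2 units higher than in Nap only and 2.49 higher than in control cultures. AMOTL2 was 2.50 and 2.29 higher. The log2 fold change of CLDN4 was -1.17 against both, and that of CLDN11 was -1.56 and -1.55. These 4 genes moved in the same direction against each reference. CLDN9 (-0.44), MARVELD3 (-0.32), PARD6A (-0.19) and PARD6G (-0.35) were not called against Nap only. MARVELD2 (-0.44), JAM3 (0.94) and CRB3 (0.64) were called there and not against the vehicle control, and the difference between the 2 references was not tested for them. With 2 Nap only cultures single libraries mattered, and JAM3 was lost when either was left out (adjusted p = 0.087 and 0.13), CRB3 and TJP1 without Nap only replicate 1 (0.143 and 0.0554), and CGN without Nap only replicate 2 (0.0965). Against the controls, 20 genes were called, 12 higher and 8 lower, where 58.7% of protein-coding genes were (30.2% and 28.5%).

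**Figure D4:**
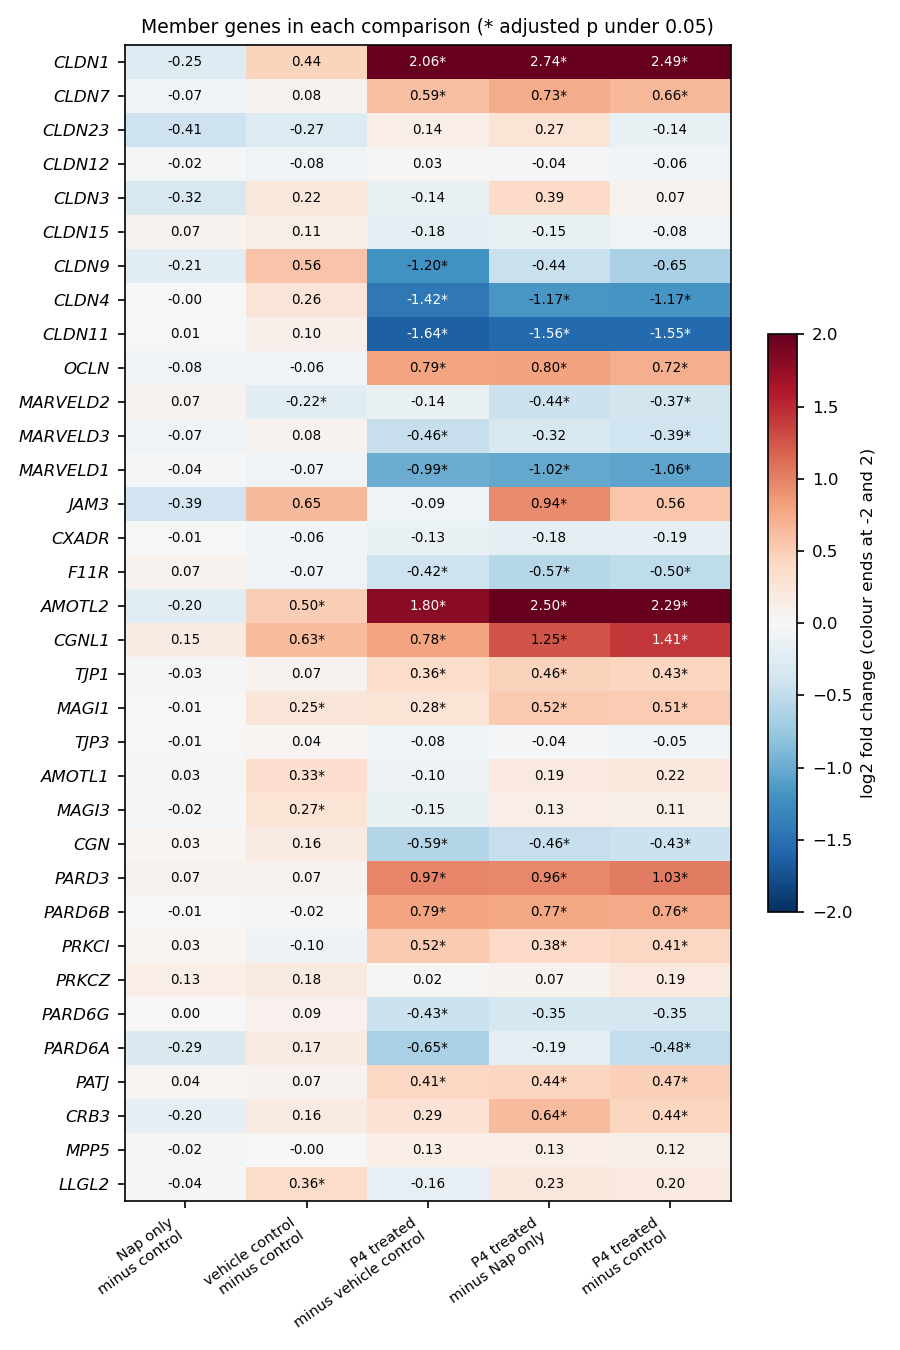
Log2 fold change (colour and printed value) of the 34 tested genes, in rows, for 5 comparisons, in columns. An asterisk marks an adjusted p under 0.05. The first column, Nap only minus control, holds no asterisk, and the second, vehicle control minus control, holds 7.

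The next comparison asked what the vehicle itself changed. Between vehicle control and control cultures 7 of 34 genes were called, 6 higher and 1 lower, where 24% of protein-coding genes were called (12.6% higher and 11.5% lower). Of the 7, 5 were junction scaffolds. CGNL1 was at 5.54, 6.96 and 5.42 CPM in the controls and 8.80, 9.06 and 9.89 CPM in the vehicle controls (log2 fold change 0.63, SE 0.156, adjusted p = 0.00618). AMOTL2 went from 121, 78.5 and 99.2 CPM to 129.6, 151 and 139 CPM (log2 fold change 0.50, SE 0.141, adjusted p = 0.0347). The groups did not overlap in either gene, and both genes were also higher in P4 treated than in vehicle control cultures. AMOTL1 (0.33), MAGI3 (0.27), MAGI1 (0.25) and LLGL2 (0.36) were higher and MARVELD2 was lower (-0.22). No call exceeded 1 log2 unit, where 1.11% of protein-coding genes did. The count rested on single libraries. It was 4, 3 and 2 without vehicle control replicate 1, 2 and 3, 4 without control replicate 3 and 10 without control replicate 2. CLDN1 was at 0.44 and CLDN4 at 0.26, and neither was called.

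Between Nap only and control cultures 0 of 34 genes were called by edgeR, as were 0 of 13002 protein-coding genes (0%). No junction gene had an unadjusted p under 0.05, against 92 protein-coding genes, and DESeq2 also called 0 junction genes. The log2 fold changes ranged from -0.41 for CLDN23 to 0.15 for CGNL1, with a median size of 0.05.

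Other genes of the pathway gave the following counts between P4 treated and vehicle control cultures. Among 44 further junction and polarity genes, 30 were tested and 12 were called, 7 higher and 5 lower, a share of 40% where 58.2% of protein-coding genes were called. PARD3B, a PAR3 relative, rose by 1.22 and VAPA, a partner of occludin, by 0.58 log2 units. CDC42, the GTPase that binds PAR6, was at -0.41 and MICALL2, a recycling adaptor of occludin, at -0.79. Of 21 transcription factors listed as claudin regulators 15 were tested, and 4 rose and 2 fell. That was 40% called, again below the 58.2% of protein-coding genes. KLF5 rose by 1.36 and KLF4 by 2.77 log2 units, while the epithelial ETS factors ELF3 and EHF changed by -1.82 and -1.42. Of 10 claudin proteases and stabilisers 8 were tested, and the 3 called genes were lower. They were 37.5% of those tested, where 58.2% of protein-coding genes were called and 27.8% called lower. The membrane protease gene TMPRSS2 changed by -2.70 and ST14, which encodes matriptase, by -0.94. Of 17 actomyosin and YAP readout genes 9 were called (52.9%), 8 higher and 1 lower. Among protein-coding genes 58.2% were called, 30.4% higher and 27.8% lower. ARHGEF2, a guanine nucleotide exchange factor that binds cingulin, rose by 1.92 and ANKRD1, a YAP target, by 3.33 log2 units, and MYH10, a non-muscle myosin heavy chain, was lower (-0.72). In the same list the vehicle control differed from the control by 4.80 log2 units in CTGF and 4.13 in CYR61, both YAP targets. Between P4 treated and vehicle control cultures only 2 genes of this list were called beyond 1 log2 unit, ARHGEF2 and ANKRD1. CTGF and CYR61 were thus not among them. Against the control and against Nap only, 4 genes of this list were called higher by more than 1 log2 unit. Among protein-coding genes tested, 937 of 12866 and 1005 of 12986 were. The number of such calls in the list thus differed with the reference.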

How the data were processed

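RNA of 17 Ishikawa cultures was made into stranded total RNA libraries and sequenced as single-end reads by the authors. The authors trimmed reads with Cutadapt, ran Subread and kept uniquely aligned reads, and deposited raw read counts per gene of GENCODE release 31 from featureCounts, without normalization. Tool versions and the strand setting of the counting are not given in the sources used here, and exons of 6 member genes overlap another annotated gene on the same strand and exons of 12 on the opposite strand.

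Columns were matched to samples by label (0 unmatched), and groups came from the titles. Symbols, positions and exon lengths are from GENCODE 29 on GRCh38. Counts were tested with edgeR 4.0.16 in R 4.3.3 (TMM, filterByExpr with minimum count 10, robust quasi-likelihood fit of the 2 groups compared, Benjamini-Hochberg adjustment over all genes tested), with a call at an adjusted p under 0.05. The fits were tested on simulated counts with the same dispersion for every gene, which is no check of the calls in these data. SE is the log2 fold change divided by the root of the F statistic. Totals were 4999521 to 19704493, and 3 counts correspond to 0.600 and 0.152 CPM in these libraries, counting error only. Tables and figures used Python 3.11.15, pandas 2.3.3, scipy 1.17.1 and matplotlib 3.10.9. Alternatives were DESeq2 1.42.0, RLE and upper-quartile scaling, no filter, at least 10 counts in every library, a joint fit of the 4 groups, a replicate block, leaving out single replicates, and the control as reference.

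The members, gene lists and tests were chosen with earlier results of these data known. Values in every library are given for called genes without overlap between groups (up to 8 per direction) and for the most abundant member of roles otherwise without one. Up to 2 genes per direction with the smallest adjusted p are named from each other list, while CTGF, CYR61 and the marker genes were named after their values were seen. One gene is not reported here. Labels name biological replicates, and the edgeR p-values compare a group difference with the modelled variation between these cultures of the Ishikawa line.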

Additional observations from a re-analysis of the deposited data

Results flagged for a closer look

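The 6 libraries without a group were not part of any comparison. In the 3 of them whose columns are named PSAT1_P4 (and whose sample titles say PSAT1), 2 member genes were at least 2 times as high in every library as in the highest control. CLDN1 had a median of 197 normalised CPM there (189 to 215) and AMOTL2 a median of 504 (476 to 554), against at most 40.1 and 121 CPM in the controls. The share of all genes that were this high in those 3 libraries was not counted, so the count of 2 has no background beside it. Whether these cultures received P4 cannot be settled from the labels, and no cause was tested.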

How the results depend on the processing

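The number of genes called between P4 treated and vehicle control cultures was 19 to 23 of at most 34 under the planned settings and 17 to 25 when 1 replicate was left out, against 20 in the main test. Between P4 treated and Nap only cultures it was 17 to 21, and 16 to 23 with 1 replicate left out, against 19. Between vehicle control and control cultures it was 4 instead of 7 with all 4 groups in one fit, and 2 to 10 with 1 replicate left out. The Nap only count stayed at 0 in all settings run. With the replicate number as a block the counts were 20, 17, 9 and 0. The replicate numbers were not taken to pair the samples. The correlations of same-numbered deviations from the group means over 15655 genes were -0.0894 to 0.0772 in the other comparisons. For the 2 pairs of Nap only and control cultures they were 0.282 and 0.335, and 2 pairs are too few to decide whether they are paired. JAM3 and CRB3 were lost against Nap only under the block (adjusted p = 0.113 and 0.0975). Some genes that were not called in the main test changed sign in P4 treated against vehicle control. With the control as reference CLDN3 was at 0.072, CLDN12 at -0.062, CLDN23 at -0.14, JAM3 at 0.56, MAGI3 at 0.11, AMOTL1 at 0.22 and LLGL2 at 0.20 on the log2 scale. With upper-quartile scaling CLDN12 was at -0.060 and PRKCZ at -0.070. With 1 replicate left out the log2 fold change ranged from -0.31 to 0.019 for CLDN3, from -0.024 to 0.29 for CLDN23, from -0.19 to 0.058 for JAM3 and from -0.041 to 0.12 for PRKCZ. Claudin shares taken from CPM in place of RPKM, an alternative chosen after seeing the data, moved the difference after P4 from 31.5 to 34.4 percentage points for CLDN1, from -18.8 to -24.1 for CLDN4 and from 0.440 to 1.22 for CLDN7. The causes of the sign changes were not tested. Depth limits what can be said of CLDN6, CLDN9, CLDN10, CLDN14, CLDN23 and JAM3, which had few counts.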

Other observations

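The 6 libraries without a group fell into 2 sets by column name for several members, all of them called above between P4 treated and vehicle control cultures. In the 3 libraries with PSAT1_P4 in the column name, CLDN4 was at 23.1 to 33.8 CPM, CLDN11 at 1.93 to 2.65, PARD3 at 104 to 122 and CGNL1 at 13.3 to 17.9. In the 3 libraries named PSAT1 alone, whose titles say PSAT1_P4, CLDN4 was at 63.4 to 76.8 CPM, CLDN11 at 8.80 to 10.5, PARD3 at 51.4 to 55.4 and CGNL1 at 5.60 to 6.53. CLDN1 made up 47.1 to 53.6% of the summed claudin RPKM in the first set and 10.7 to 18.2% in the second. The ratio of PARD6B to PARD6A in RPKM was 4.88 to 7.80 in the first set and 2.81 to 3.78 in the second. Other members overlapped between the sets, among them CLDN3 (7.15 to 9.38 and 5.60 to 10.8 CPM) and TJP3 (28.7 to 37.2 and 33.6 to 40.9 CPM). The share of all genes that separated was not counted.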
